A study of Mus musculus with 16 samples.

Results

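The proteasome genes were taken from the expression table by symbol, as every gene named Psma to Psmg followed by a number, which gave 48 of the 31274 genes and other transcribed features listed. They were measured by RNA-seq of whole mouse uterus in 4 groups of 4 libraries. The PRB strain (PgrcrePgrBLsL/+) and the PRA strain (PgrcrePgrALsL/+) each carried a Cre recombinase driven from Pgr, the progesterone receptor gene, and a Cre-activated allele of receptor isoform B or isoform A. All females were ovariectomized for 2 weeks, after housing with female littermates until 8 weeks of age, and received progesterone (P4) or oil for 6 h. The groups were PRB with P4, PRB with oil, PRA with P4 and PRA with oil. No group without a transgene was analysed here, so each strain was compared with its own oil group. Cre from Pgr acts in the cells that express Pgr, and whole uterus mixes epithelium, stroma, muscle, vessels and blood cells. In such bulk tissue fewer cells of a type and less RNA per cell cannot be told apart.

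The proteasome is the protease that degrades proteins tagged with ubiquitin. Its core particle is a barrel of outer alpha rings and inner beta rings, and the protein-cutting sites lie on the beta subunits Psmb5, Psmb6 and Psmb7. In cells exposed to interferon Psmb8, Psmb9 and Psmb10 take their place, which gives the immunoproteasome, known for making peptides that MHC class I molecules display. A regulatory particle of ATPases and non-ATPase subunits recognises, unfolds and feeds in the substrate, other complexes can cap the barrel in its place, and dedicated chaperones assist assembly.

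Values are FPKM (fragments scaled to transcript length and to library size). Differences are on the log2(FPKM + 1) scale, with the standard error (SE) of a limma fit over all 16 libraries. A gene is called where the Benjamini-Hochberg adjusted p was under 0.05. The adjustment ran over the 15408 features whose FPKM averaged 1 or more across libraries, among them 46 of the 48 proteasome genes. The others were Psma8, an alpha subunit of the testis, and Psmb11, a catalytic subunit of the thymus. Psma8 had 0.218, 0.284, 0.374 and 0.265 FPKM in PRB with P4, 0.245, 0.206, 0.258 and 0.262 in PRB with oil, 0.192, 0.370, 0.522 and 0.371 in PRA with P4 and 0.248, 0.188, 0.290 and 0.417 in PRA with oil. Psmb11 had 0, 0.00739, 0 and 0.00746 FPKM in PRB with P4, 0.00346, 0, 0.00336 and 0.00341 in PRB with oil, 0.00722, 0.0110, 0 and 0.00739 in PRA with P4 and 0.0105, 0.0104, 0.00350 and 0.0235 in PRA with oil. Both were too low to test.

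Total FPKM per library was 572846 to 595748 with P4 and 499748 to 528785 with oil, and the median difference of all tested features was 0.00 in PRB and 0.01 in PRA. Pgr averaged 112 ± 22.3 FPKM in PRB with P4 and 83.5 ± 4.49 in PRB with oil, and 73.9 ± 1.80 in PRA with P4 and 64.9 ± 5.52 in PRA with oil (SD, n = 4). These values do not separate the isoforms, and whether reads of the transgene were counted with the endogenous gene is not stated. They therefore check neither strain's isoform. Markers of epithelium, stroma, smooth muscle and endothelium were all detected. PRB P4 replicate 3 stood apart, with 78.5 FPKM of Pgr (121 to 126 in the other 3 libraries of its group), 258 FPKM of the myeloid gene Lyz2 (91.6 to 114) and 9.71 FPKM of the leukocyte gene Ptprc (4.21 to 4.42). Without it, 39 proteasome genes were called higher and 4 lower in PRB. The numbers of libraries are small, and nothing states that each came from a separate mouse, so p-values measure the spread between libraries, which the labels call biological replicates. One label field speaks instead of mated females at pregnancy day 4. The other fields and the design text give ovariectomy and 6 h of treatment, which are used here. The library codes in the sample descriptions run in blocks by strain and treatment, and what they stand for is not stated.

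With P4, nearly the whole set of constitutive proteasome genes was higher than with oil in both strains. In PRB, 39 of 46 genes rose and 5 fell, where 69.1% of all tested features were called, 36.2% as higher and 32.9% as lower (limma, adjusted p under 0.05). After quantile normalization, or scaling of each library to the same total, 36 of the 46 were called higher in PRB. In PRA, 39 of 46 rose and 1 fell, where 69.8% of all features were called, 36.6% as higher and 33.2% as lower, and 39 were called higher after either scaling. The median difference of the 46 genes was 0.60 in PRB and 0.66 in PRA. Scaling to the same total moved the median of all features to -0.18 in PRB and -0.15 in PRA, and that of the proteasome genes to 0.41 in PRB and 0.49 in PRA. It also changed the balance over all features, of whose calls 37.1% were then higher in PRB, against 52.4% before, and 39% in PRA, against 52.5% before.

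The separation was complete for most members. In PRB all 4 P4 libraries lay above all 4 oil libraries for 38 of 46 genes and below for 2, and these shares were 32.6% and 28.5% over all features. In PRA the numbers were 39 above and 1 below, against 35% and 31.2% over all features. The changes were moderate in size, with at least 1 on the log2 scale in 4 genes in PRB and in 7 in PRA. Over all 15408 features, 1157 in PRB and 1137 in PRA rose by at least 1. Together the 46 genes held 0.499% ± 0.00810 of all FPKM in PRB with P4 and 0.369% ± 0.0185 in PRB with oil. In PRA they held 0.522% ± 0.0154 with P4 and 0.364% ± 0.0233 with oil (SD, n = 4).

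**Figure D1:**
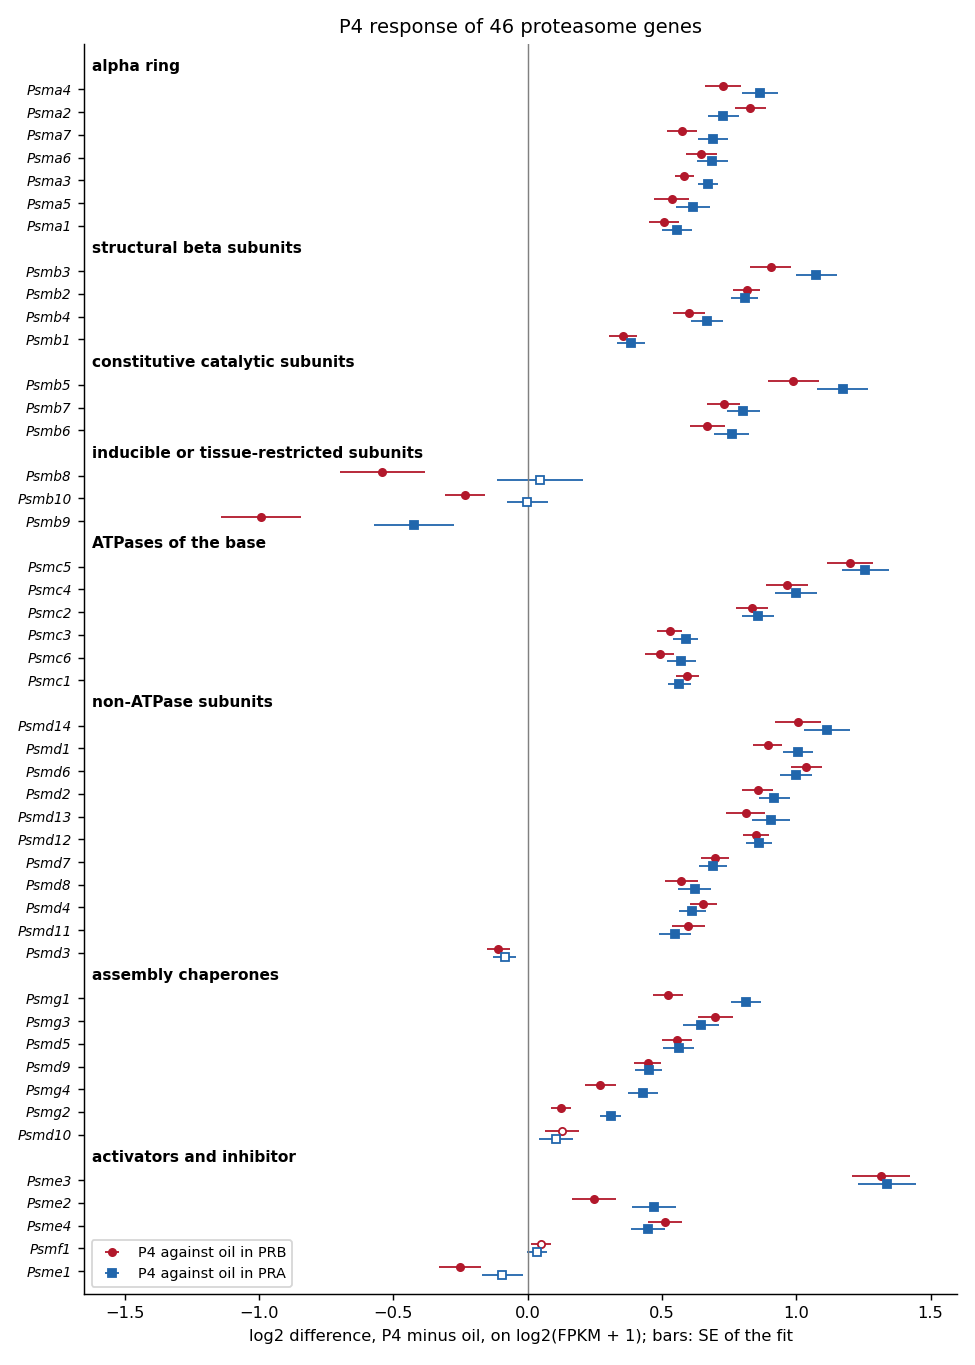
Log2 difference of P4 minus oil for the 46 tested proteasome genes, grouped by role, in PRB (circles) and PRA (squares), with the standard error of the fit as bars. Filled symbols are genes called at an adjusted p under 0.05 and open symbols those not called; nearly all core and regulatory subunits lie between 0.35 and 1.26, while Psmb8, Psmb9 and Psmb10 lie at or below 0.046.

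The 7 alpha-ring genes, whose products form the gated outer rings of the core, all rose in both strains. Their median difference was 0.58 in PRB and 0.69 in PRA, over a range of 0.51 to 0.83 in PRB and 0.56 to 0.86 in PRA. Psma2 was the highest of them in PRB (0.83, SE 0.058, adjusted p = 1.21e-08) and Psma4 in PRA (0.86, SE 0.067, adjusted p = 3.44e-08). Psma7, the alpha subunit with the highest FPKM, averaged 108 ± 2.58 FPKM in PRB with P4 and 72.4 ± 1.08 in PRB with oil, and 118 ± 6.22 in PRA with P4 and 72.7 ± 6.43 in PRA with oil (SD, n = 4).

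The 4 beta subunits without a cutting site, Psmb1 to Psmb4, also all rose. Psmb3 moved most and Psmb1 least. Psmb3 stood at 102, 104, 101 and 106 FPKM in PRB with P4, against 54.4, 51.0, 53.7 and 59.6 in PRB with oil. In PRA it stood at 99.5, 113, 116 and 119 FPKM with P4, against 45.5, 56.1, 50.3 and 59.1 with oil. Every P4 library therefore exceeded every oil library by a wide margin, with differences of 0.90 in PRB and 1.07 in PRA (SE 0.076 each, adjusted p = 8.75e-08 in PRB and 1.58e-08 in PRA). Psmb1 averaged 88.2 ± 2.18 FPKM in PRB with P4 and 68.8 ± 1.43 in PRB with oil, and 87.0 ± 2.52 in PRA with P4 and 66.6 ± 5.68 in PRA with oil (SD, n = 4). Its differences, 0.35 in PRB and 0.38 in PRA, were the smallest of the 14 constitutive core subunits, and that in PRB was not called after quantile normalization (0.068, adjusted p = 0.231).

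The 14 constitutive core subunits summed to 1242 ± 25.4 FPKM in PRB with P4 and 763 ± 33.7 in PRB with oil. In PRA the sum was 1287 ± 61.7 FPKM with P4 and 748 ± 59.0 with oil (SD, n = 4). No oil library reached the lowest P4 library of either strain.

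The 3 constitutive catalytic genes rose while the 3 immunoproteasome genes that replace them did not. Psmb5 encodes the chymotrypsin-like subunit and lies on the minus strand at chr14:54614120-54617995 (RefSeq, GRCm38.p6, as for all positions here). It stood at 143, 147, 156 and 171 FPKM in PRB with P4, against 73.4, 74.6, 71.0 and 90.6 in PRB with oil. In PRA it stood at 149, 157, 158 and 181 FPKM with P4, against 65.3, 72.4, 64.6 and 82.4 with oil. All P4 values lay above all oil values, and the means were 1.99-fold higher with P4 in PRB (0.99, SE 0.094, adjusted p = 2.99e-07) and 2.27-fold higher in PRA (1.17, SE 0.094, adjusted p = 5.19e-08).

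Psmb6, the caspase-like subunit (chr11:70525324-70527858, plus strand), stood at 109, 105, 99.1 and 110 FPKM in PRB with P4, against 66.3, 62.9, 68.5 and 67 in PRB with oil. It stood at 100.01, 111, 113 and 116 FPKM in PRA with P4, against 57.0, 70.8, 63.4 and 67.8 in PRA with oil. The groups did not overlap, and Psmb6 rose by 0.67 in PRB and 0.76 in PRA (SE 0.065). Psmb7, the trypsin-like subunit (chr2:38588046-38643952, minus strand), stood at 86.8, 83.9, 82.8 and 85.1 FPKM in PRB with P4, against 50.3, 47.0, 51.8 and 53.5 in PRB with oil. It stood at 84.7, 89.7, 83.0 and 92.4 FPKM in PRA with P4, against 43.8, 53.1, 48.5 and 53.9 in PRA with oil. Psmb7 likewise separated the treatments completely and rose by 0.73 in PRB and 0.80 in PRA (SE 0.062).

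Psmb8, the inducible counterpart of Psmb5, lies on the plus strand at chr17:34198195-34201454. It stood at 28.7, 28.4, 29.1 and 23.9 FPKM in PRB with P4, against 32.7, 33.1, 41.7 and 58.6 in PRB with oil. In PRA it stood at 36.0, 37.2, 35 and 31.2 FPKM with P4, against 29.3, 31.1, 32.8 and 42.9 with oil. In PRB the groups did not overlap and Psmb8 fell by 0.54 (SE 0.16, adjusted p = 0.00715). In PRA they overlapped, with a difference of 0.046 (SE 0.16, adjusted p = 0.811).

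Psmb9, the counterpart of Psmb6 (chr17:34182030-34187330, minus strand), stood at 13.7, 14, 16 and 11.7 FPKM in PRB with P4, against 23.8, 23.0, 29.9 and 39.5 in PRB with oil. It stood at 19.0, 19.6, 17.7 and 18 FPKM in PRA with P4, against 23.3, 23.9, 22.6 and 31.9 in PRA with oil. It was the only one of the 3 to fall in both strains, by 0.99 in PRB (SE 0.15, adjusted p = 3.08e-05) and by 0.42 in PRA (SE 0.15, adjusted p = 0.0203). The call in PRA was lost without PRA oil replicate 4, where the difference was -0.31 (adjusted p = 0.0724). Exons of Psmb9 overlap those of the peptide transporter gene Tap1 on the opposite strand over 212 bases. Whether the counting used strand is not given in the sources used here, so reads from that stretch cannot be assigned.

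Psmb10, the counterpart of Psmb7 (chr8:105935728-105938392, minus strand), moved least. It stood at 21.8, 22.5, 19.4 and 19.6 FPKM in PRB with P4, against 22.2, 23.3, 24.2 and 29.1 in PRB with oil. It stood at 23.2, 21.7, 23.2 and 22.1 FPKM in PRA with P4, against 21.2, 21.9, 22.9 and 24.3 in PRA with oil. The groups overlapped in both strains. The decrease of 0.23 in PRB was called (SE 0.075, adjusted p = 0.0124), and the difference in PRA was -0.0005 (adjusted p = 0.998).

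**Figure D2:**
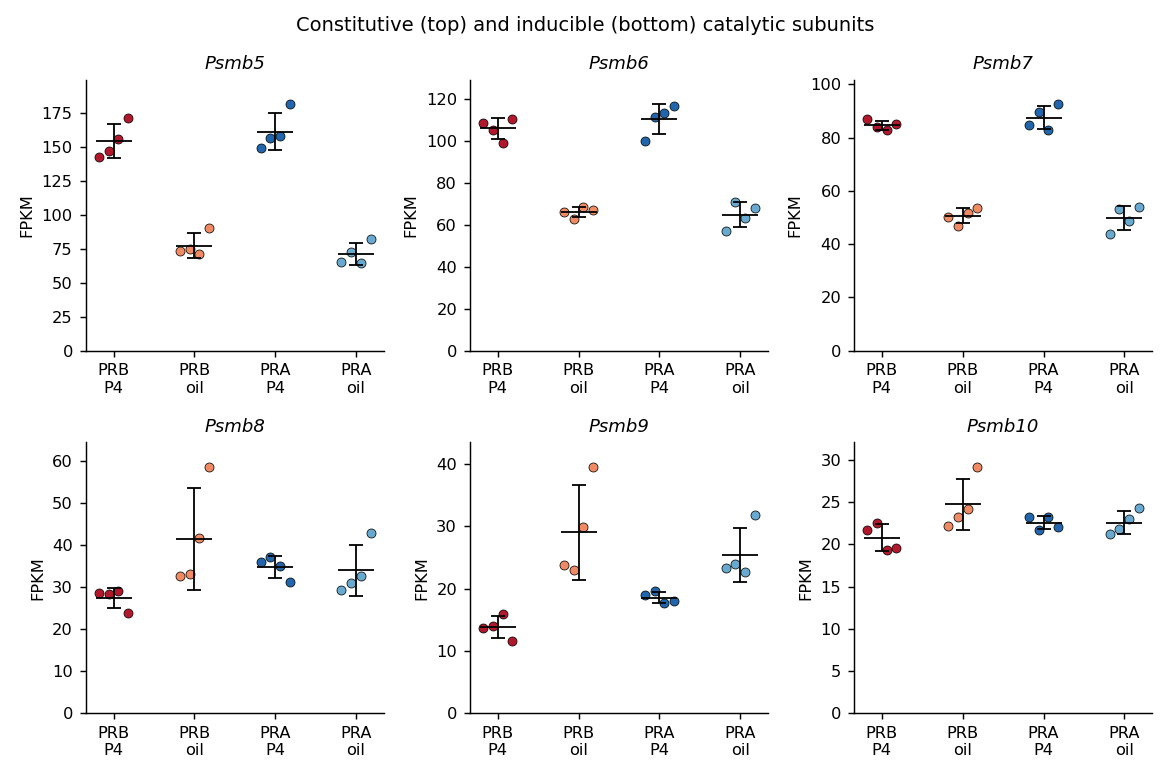
FPKM of the constitutive catalytic genes Psmb5, Psmb6 and Psmb7 (top) and the inducible genes Psmb8, Psmb9 and Psmb10 (bottom), one point per library, with the mean and SD of each group of 4. All P4 libraries exceed all oil libraries for the top genes, while the highest values of the bottom genes are those of PRB oil replicate 4.

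The ratio of an inducible subunit to its constitutive counterpart within a library does not depend on scaling between libraries. Psmb8 over Psmb5 was 0.180 ± 0.0278 in PRB with P4 and 0.531 ± 0.103 in PRB with oil, and 0.218 ± 0.0319 in PRA with P4 and 0.477 ± 0.0444 in PRA with oil (SD, n = 4). Psmb9 over Psmb6 was 0.132 ± 0.0230 in PRB with P4 and 0.438 ± 0.107 in PRB with oil, and 0.169 ± 0.0167 in PRA with P4 and 0.394 ± 0.0590 in PRA with oil. Psmb10 over Psmb7 was 0.246 ± 0.0177 in PRB with P4 and 0.488 ± 0.0444 in PRB with oil, and 0.259 ± 0.0212 in PRA with P4 and 0.455 ± 0.0321 in PRA with oil. All 3 ratios were lower in every P4 library than in every oil library of the same strain. Each of these 6 differences had p = 0.0286 in a two-sided exact permutation test, the smallest value that 4 libraries against 4 allow. Adjusted over the 12 ratio tests made, that is 0.0572, which misses the threshold of 0.05. Between PRB and PRA the ratios had exact permutation p-values of 0.0857 to 0.514 (unadjusted).

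**Figure D3:**
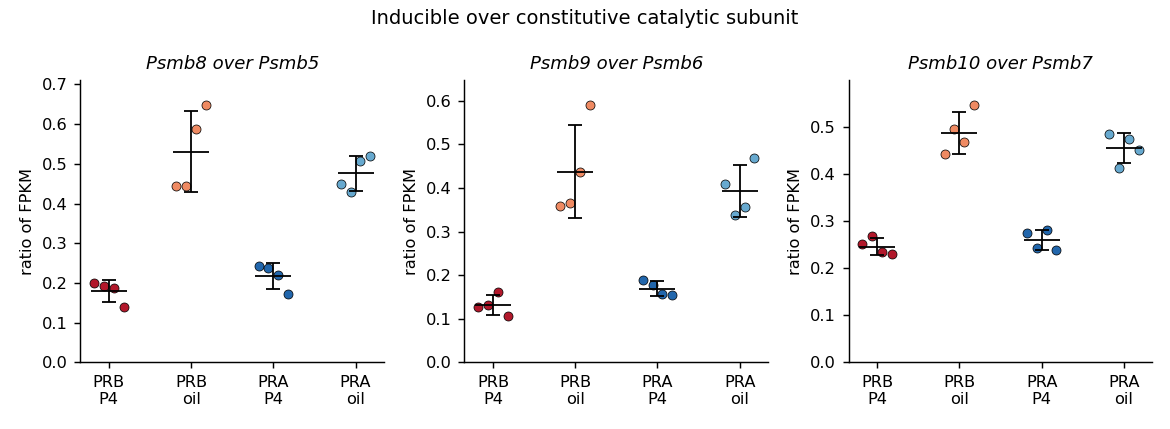
Ratio of FPKM of each inducible catalytic gene to its constitutive counterpart in each library, with the mean and SD of each group of 4. Every P4 library lies below every oil library of the same strain for all 3 ratios, for example 0.139 to 0.201 in PRB with P4 against 0.444 to 0.647 in PRB with oil for Psmb8 over Psmb5.

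Psmb8 and Psmb9 were the most variable of the 46 genes among the oil libraries of each strain. The coefficient of variation of Psmb8 was 29.3% in PRB with oil and 17.9% in PRA with oil, that of Psmb9 26.2% and 16.9%, and that of Psmb10 12.4% and 5.98%, where the medians of the 46 genes were 5.35% and 7.47%. PRB oil replicate 4 was highest in that group for Psmb8, Psmb9 and Psmb10, which together summed to 127 FPKM there and to 78.7 to 95.8 FPKM in the other 3 libraries. That library also had the group's highest values of Nlrc5, an activator of MHC class I genes (5.29 FPKM, against 1.5 to 3.17 in the others), and Tap1 (37.3, against 20.04 to 28.3). Its Ptprc was also the highest of the group (6.18 FPKM, against 4.30 to 4.88), while its Lyz2 was the lowest (91.7, against 114 to 123). Without it, the decreases in PRB were -0.36 for Psmb8 (adjusted p = 0.0178), -0.84 for Psmb9 (adjusted p = 3.98e-05) and -0.16 for Psmb10 (adjusted p = 0.0393), all still called.

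Of 12 genes of antigen processing and its interferon control, 5 fell and none rose in PRB, and 3 fell and 1 rose in PRA. Over all features 32.9% were called lower and 36.2% higher in PRB, and 33.2% and 36.6% in PRA. Irf1, a transcription factor of the interferon response, averaged 26.0 ± 3.36 FPKM in PRB with P4 and 43.8 ± 5.07 in PRB with oil, and 22.7 ± 1.32 in PRA with P4 and 42.0 ± 2.42 in PRA with oil (SD, n = 4). It fell by 0.73 in PRB and by 0.86 in PRA. Tap2, a subunit of the peptide transporter, fell by 0.56 in PRB and by 0.47 in PRA, and the loading factor gene Tapbp fell by 0.26 in PRB and by 0.22 in PRA. Tap1 fell by 0.82 in PRB, while its difference in PRA was -0.25 (adjusted p = 0.174). Cd74, the MHC class II invariant chain, was the other gene that fell in PRB, and Erap1, a peptidase that trims peptides, was the one that rose in PRA (0.41). The MHC class I genes H2-K1, H2-D1 and B2m were not called in either strain. The median of the list was -0.20 in PRB and -0.07 in PRA.

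Leukocytes are rich in immunoproteasome. The 12 leukocyte genes measured summed to 259 to 478 FPKM in PRB with P4 and 299 to 328 in PRB with oil. In PRA they summed to 224 to 269 FPKM with P4 and 219 to 307 with oil, where the treatments overlapped. In PRB the overlap rested on P4 replicate 3, the library that stood apart above, with 478 FPKM. The other PRB libraries with P4 lay below every PRB oil library. None of these genes was at 0 in all libraries of a group. Of the 11 tested, S100a8 rose and H2-Aa fell in PRB, and S100a8 rose while H2-Aa and Csf1r fell in PRA. The part of leukocyte number in the levels of Psmb8, Psmb9 and Psmb10 was not tested.

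All 6 ATPases of the regulatory base, which unfold the substrate and open the gate, rose in both strains, with a median of 0.71 in PRB and 0.72 in PRA. Psmc5 rose most of them. It stood at 86.9, 86.3, 84.9 and 92.4 FPKM in PRB with P4, against 36.1, 33.2, 37.5 and 44.4 in PRB with oil. The PRA values were 87.1, 88.4, 93.3 and 95.1 FPKM with P4, against 33.1, 40.3, 34.5 and 42.6 with oil. The means were 2.32-fold higher with P4 in PRB (1.20, SE 0.086, adjusted p = 1.66e-08) and 2.42-fold higher in PRA (1.26, SE 0.086, adjusted p = 1.11e-08). Psmc4 followed with 0.96 in PRB and 1.00 in PRA, and Psmc6 (0.49 and 0.57), Psmc3 (0.53 and 0.59) and Psmc1 (0.59 and 0.56) moved least. In PRB the 6 genes summed to 451 ± 13.8 FPKM with P4 and 255 ± 14.2 with oil, and in PRA to 464 ± 18.5 with P4 and 257 ± 21.2 with oil (SD, n = 4).

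Of the 11 non-ATPase subunits 10 rose in each strain, with a median of 0.81 in PRB and 0.86 in PRA over all 11. Psmd14, the enzyme that removes ubiquitin chains at the entrance, stood at 35.7, 34.0, 39.7 and 36.4 FPKM in PRB with P4, against 16.2, 15.9, 19.3 and 19.3 in PRB with oil. It stood at 36.5, 42.8, 41.8 and 45.0 FPKM in PRA with P4, against 16.5, 19.1, 17.9 and 21.0 in PRA with oil. The P4 libraries were far above the oil libraries in both strains, by 1.01 in PRB (SE 0.086, adjusted p = 1.02e-07) and by 1.12 in PRA (SE 0.086, adjusted p = 3.45e-08). Psmd6, a lid subunit, stood at 82.2, 78.7, 76.5 and 81.6 FPKM in PRB with P4, against 39.0, 34.9, 38.9 and 40.7 in PRB with oil, a difference of 1.04 (SE 0.059, adjusted p = 1.91e-09). It stood at 77.9, 77.3, 76.5 and 78.9 FPKM in PRA with P4, against 33.6, 40.2, 38.7 and 41.2 in PRA with oil, a difference of 1.00. Again no oil library came near a P4 library. Psmd1 and Psmd2, the large scaffold subunits of the base, rose by 0.89 and 0.86 in PRB and by 1.01 and 0.92 in PRA. Psmd4, a receptor for ubiquitin chains, rose by 0.65 in PRB and by 0.61 in PRA.

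Psmd3, another lid subunit (chr11:98682554-98695978, plus strand), was the exception. It stood at 95.8, 98.1, 95.2 and 103 FPKM in PRB with P4, against 111, 103, 104 and 105 in PRB with oil. The PRA values were 101, 98.7, 99.6 and 102 FPKM with P4, against 106, 104, 114 and 101 with oil. With oil it had the highest FPKM of the 11, and with P4 its groups overlapped those with oil. The difference in PRB was small but called (-0.11, SE 0.043, adjusted p = 0.0337), and that in PRA was -0.085 (adjusted p = 0.0895), although Psmd3 was called lower in PRA under either scaling above (as low as -0.34). Of 26 alternatives, 8 ended the call in PRB (adjusted p of 0.0527 to 0.108), among them the omission of PRB P4 replicate 1, 2 or 3 or of PRB oil replicate 1 or 4.

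**Figure D4:**
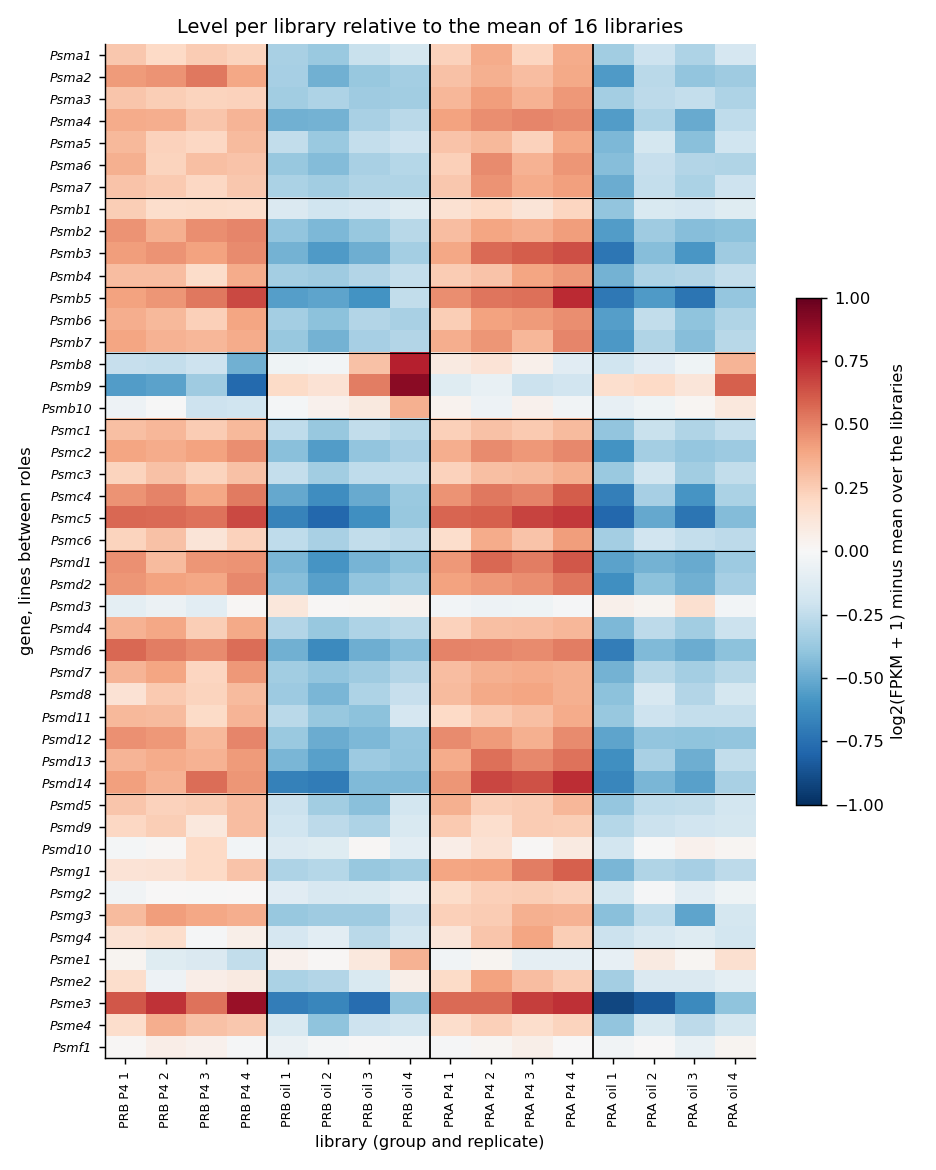
Level of each tested proteasome gene in each of the 16 libraries, as log2(FPKM + 1) minus the gene's mean over the libraries, with red above and blue below that mean and lines between roles and groups. Most genes are red with P4 and blue with oil, Psmb9 is the reverse, and P4 and oil overlap in at least 1 strain for Psmb8, Psmb10, Psmd3, Psmd10, Psme1, Psme2 and Psmf1.

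The caps that compete with the regulatory particle diverged. Psme3 encodes the nuclear activator PA28-gamma (chr11:101316213-101323537, plus strand) and had the largest increase of all 46 genes in both strains. It stood at 113, 121, 107 and 134 FPKM in PRB with P4, against 44.8, 46.1, 42.5 and 55.2 in PRB with oil. The PRA values were 108, 109, 118 and 122 FPKM with P4, against 38.3, 40.3, 46.4 and 54.9 with oil. The means were 2.52-fold higher with P4 in PRB (1.32, SE 0.11, adjusted p = 6.09e-08) and 2.54-fold higher in PRA (1.34, SE 0.11, adjusted p = 5.19e-08).

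Psme1 encodes the alpha subunit of the interferon-inducible activator PA28 (chr14:55578494-55581527, plus strand). It stood at 40.0, 35.9, 35.3 and 32.9 FPKM in PRB with P4, against 40.5, 39.7, 42.3 and 50.3 in PRB with oil. The PRA values were 38.2, 40.1, 36.8 and 36.8 FPKM with P4, against 37.0, 41.8, 39.9 and 43.9 with oil. The groups overlapped in both strains. Psme1 fell by 0.25 in PRB (SE 0.076, adjusted p = 0.00888), and the difference in PRA was -0.094 (adjusted p = 0.286), but -0.26 and -0.27 and called under the quantile and same-total scalings. Psme1 over Psme3 was 0.307 ± 0.0471 in PRB with P4 and 0.918 ± 0.0555 in PRB with oil, and 0.334 ± 0.0320 in PRA with P4 and 0.916 ± 0.106 in PRA with oil (SD, n = 4).

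Psme2, the beta subunit of the same activator, averaged 17 ± 1.18 FPKM in PRB with P4 and 14.2 ± 1.85 in PRB with oil, and 19.9 ± 1.28 in PRA with P4 and 14.1 ± 1.07 in PRA with oil (SD, n = 4). It was called higher in both strains (0.25 and 0.47), but the call in PRB was lost under 3 of 26 alternatives, including the omission of PRB oil replicate 1 or 2. These values are uncertain, because a close copy, Psme2b, is listed at higher levels (107 ± 7.46 FPKM in PRB with P4, for example) and the counting may have divided the reads between them. Psme2 and Psme2b together gave 124 ± 8.39 FPKM in PRB with P4 and 104 ± 12.6 in PRB with oil, and 144 ± 7.23 in PRA with P4 and 97.9 ± 9.57 in PRA with oil. Psme4, the large nuclear activator PA200, rose by 0.51 in PRB and by 0.45 in PRA. Psmf1, described as an inhibitor of the core particle, averaged 17.7 ± 0.465 FPKM in PRB with P4 and 17 ± 0.333 in PRB with oil, and 17.5 ± 0.422 in PRA with P4 and 17.1 ± 0.536 in PRA with oil, and was not called, except after scaling to the same total, when its difference was -0.13 in both strains.

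Among the 7 assembly chaperones 6 rose in both strains, with medians of 0.45 in PRB and 0.45 in PRA, but Psmg2 in PRB (0.13) turned to -0.064 and -0.062, not called, under the quantile and same-total scalings. Psmd5 and Psmd9, which help to build the ATPase ring, rose by 0.56 and 0.45 in PRB and by the same amounts in PRA. Psmd10, also called gankyrin and a chaperone of the same ring, was not called in either strain (0.13 and 0.11). Psmg3 and Psmg4, which act as a pair early in alpha-ring formation, rose by 0.70 and 0.27 in PRB and by 0.64 and 0.43 in PRA. The call of Psmg4 in PRB was lost after quantile normalization (adjusted p = 0.621) and after scaling to the same total (adjusted p = 0.183).

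Psmg1 and Psmg2 form the other pair of chaperones of the alpha ring, and had the lowest adjusted p-values of the 46 genes between the strains with P4. With P4, 3 of 46 proteasome genes were lower in PRB than in PRA and none was higher, where 16% of all features were called, 8.29% as lower and 7.75% as higher. The 3 were Psmg1, Psmg2 and Psma3, an alpha-ring subunit. At an unadjusted p under 0.05 there were 7 genes, against 4727 of all 15408 features. The widest differences by size were those of Psmb9 (-0.41, SE 0.15, adjusted p = 0.0789) and Psmb8 (-0.33, SE 0.16, adjusted p = 0.172), where the strains did not overlap either but which were not called. Both were called when only the PRB and PRA libraries with P4 were fitted (limma, adjusted p = 0.0266 for Psmb9 and 0.036 for Psmb8). The median difference was -0.051 for the 46 genes and -0.014 for all features. In 8 of the 46 genes all PRB libraries with P4 lay below all PRA libraries with P4, and in 1, Psma2, above, while these shares were 10.9% and 9.23% over all features.

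Psmg1 (chr16:95979933-95990960, minus strand) stood at 23.8, 23.9, 24.8 and 26.4 FPKM in PRB with P4, against 28.5, 28.7, 31.1 and 33.0 in PRA with P4. Every PRB value was below every PRA value, a difference of -0.28 (SE 0.056, adjusted p = 0.00431). With oil it stood at 17.2, 17.5, 16.3 and 16.7 FPKM in PRB, against 15.4, 17.3, 16.9 and 17.8 in PRA, where the strains overlapped (0.0077). Psmg2 stood at 36.3, 37.3, 37.0 and 37.3 FPKM in PRB with P4, against 42.3, 44.0, 44.2 and 43.9 in PRA with P4. The strains again did not overlap, with a difference of -0.23 (SE 0.038, adjusted p = 0.00134), while with oil it was -0.047. Psma3 stood at 25.3, 24.8, 24.4 and 24.5 FPKM in PRB with P4, against 26.3, 28.0, 26.7 and 28.4 in PRA with P4. Its difference of -0.14 (SE 0.037, adjusted p = 0.0216) was called, but not without PRA P4 replicate 2 (-0.12, adjusted p = 0.0679) or replicate 4 (-0.12, adjusted p = 0.0775). Nor was it called when only the libraries compared were fitted. Psmg4, not called here (-0.17, adjusted p = 0.0605), was called lower under the quantile and same-total scalings and without PRA P4 replicate 1 (limma, adjusted p of 0.0197 to 0.0369).

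**Figure D5:**
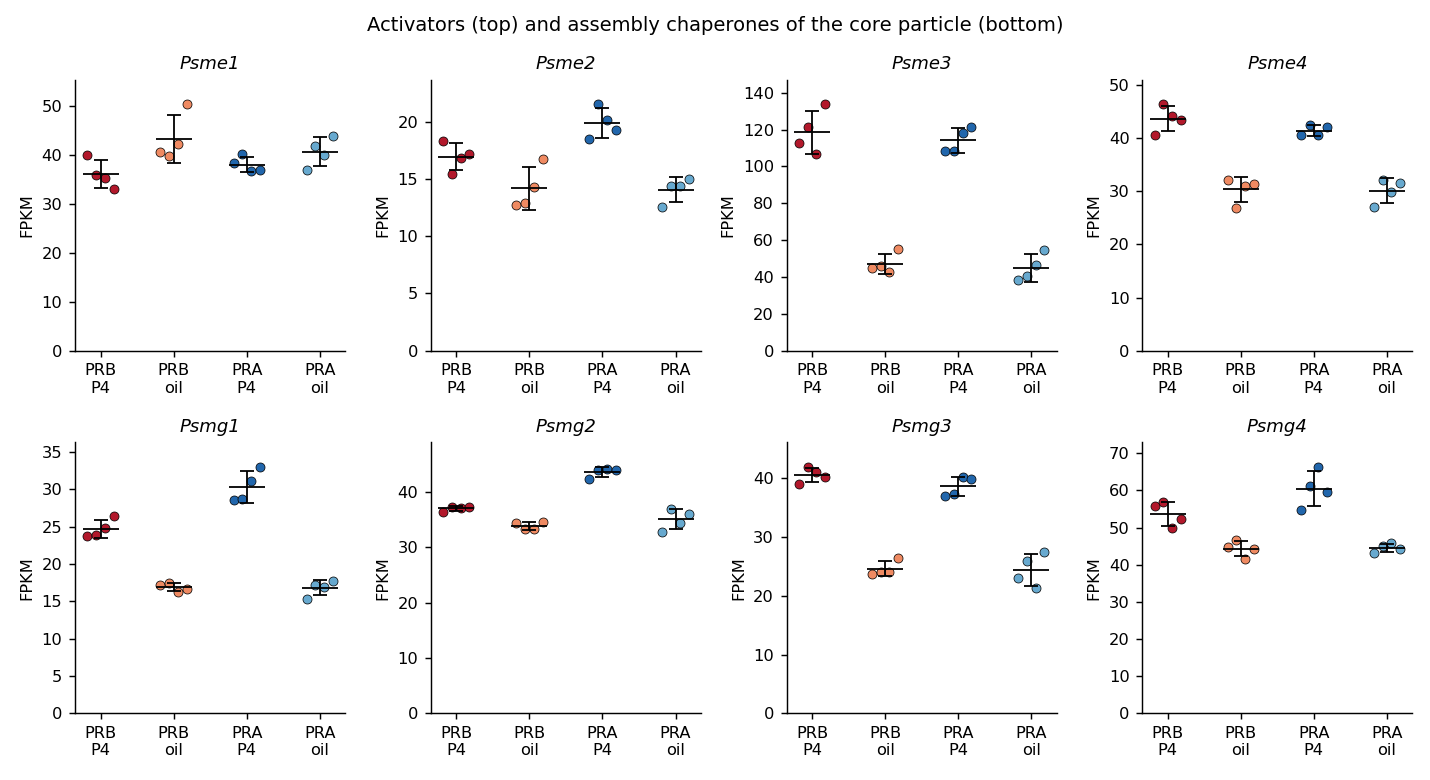
FPKM of the activator genes Psme1 to Psme4 (top) and of the alpha-ring chaperone genes Psmg1 to Psmg4 (bottom), one point per library, with the mean and SD of each group of 4. Psme3 is 107 to 134 FPKM in PRB with P4 and 42.5 to 55.2 in PRB with oil, and for Psmg1 and Psmg2 all PRB libraries with P4 lie below all PRA libraries with P4.

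Without hormone no difference between the strains was detected in the proteasome genes. With oil, 0 of 46 proteasome genes were called in PRB against PRA by limma, and 0 had an unadjusted p under 0.05. Of all features 0.117% were called, 0.0389% as higher and 0.0779% as lower, and 802 of 15408 had such a p. In none of the 46 genes did the strains separate without overlap, against 1.25% of all features with PRB higher and 2.14% with PRB lower. The differences lay between -0.078 and 0.25, with a median of 0.0047, and the widest were those of Psmb8 (0.25, SE 0.16) and Psmb9 (0.17, SE 0.15).

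The responses to P4 themselves were compared as PRB minus PRA. None of the 46 differences was called, where 2.28% of all features were (1.47% with PRB higher and 0.811% with PRB lower), and 5 had an unadjusted p under 0.05, against 2538 of all 15408 features. These 5 were Psmb8 (-0.59, SE 0.22, adjusted p = 0.201), Psmb9 (-0.57, SE 0.21, adjusted p = 0.184), Psmb10 (-0.23, SE 0.11, adjusted p = 0.290), Psmg1 (-0.29, SE 0.079, adjusted p = 0.0723) and Psmg2 (-0.18, SE 0.053, adjusted p = 0.0895). The fall of Psmb8 and Psmb10 in PRB and not in PRA is therefore not shown to differ between the strains. The difference was below 0 for 35 of the 46 genes and above 0 for 11, and ranged from -0.59 to 0.10. Regardless of sign, the response was the larger in PRB for 16 genes and in PRA for 30. Over the 46 genes the responses of the strains correlated (Pearson 0.96, Spearman 0.95), which is a description, since genes of the same libraries are not independent. In the same direction 40 genes were called in both strains, and 4 were called in PRB alone, namely Psmb8, Psmb10, Psme1 and Psmd3.

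The members varied together from library to library. PRA oil replicate 1 was the lowest of its group for 41 of 46 genes, PRA P4 replicate 1 for 32, PRB oil replicate 2 for 31 and PRB P4 replicate 3 for 24. PRB oil replicate 4 was the highest of its group for 31 genes and PRA oil replicate 4 for 28. Such counts were not made over all features, so these shifts are not shown to be particular to proteasome genes. PRA oil replicate 1 also had the lowest total FPKM of the libraries (499750). The median deviation of the 46 genes in a library from its group mean ran from -0.13 to 0.09 on the log2 scale, well inside the differences between P4 and oil. The median coefficient of variation of the 46 genes was 4.18% in PRB with P4, 5.35% in PRB with oil, 4.16% in PRA with P4 and 7.47% in PRA with oil. Over all tested features it was 10.4%, 8.29%, 7.65% and 8.76% in the same groups. Since members share these shifts, their counts are not independent of each other.

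The genes lie apart in the genome, on 16 chromosomes, with 8 on the fullest, chromosome 11. In 8 the start lies within 1000 bases of the start of a protein-coding gene on the other strand, such as Psmb1 and Tbp at 137 bases, Psmc5 and Ftsj3 at 75, Psmc2 and Dnajc2 at 32 and Psma2 and Mrpl32 at 75. Exons of 8 members overlap those of another protein-coding gene, among them Psmb7 and Nek6 over 405 bases and Psmd13 and Sirt3 over 342. Reads from such stretches cannot be assigned without strand.

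NFE2L1, also called NRF1, is known to raise proteasome genes through antioxidant response elements, so the RefSeq promoters (GRCm38.p6), from 250 bases before to 50 after the start, were searched on both strands for TGACNNNGC. Promoters were matched for 40 of the 48 genes by symbol. The letters occurred in 6 of 40 (15%), and in 14% of 27025 genes with a promoter, so the share was near that of genes at large. The stretches are shown for 4 of the 6 genes, so that the match of the catalytic gene Psmb5 can be compared with the others. Capitals mark the match, as written or as its reverse complement on the gene's strand, and bases within an annotated exon (GENCODE) or the RefSeq span of the gene were left out. They are Psmb5 at chr14:54618023-54618245 (minus strand), Psmc6 at chr14:45329574-45329631 (plus), Psmd12 at chr11:107479278-107479315 (plus) and Psmd9 at chr5:123228130-123228189 (plus), each 5′ to 3′.
Psmb5: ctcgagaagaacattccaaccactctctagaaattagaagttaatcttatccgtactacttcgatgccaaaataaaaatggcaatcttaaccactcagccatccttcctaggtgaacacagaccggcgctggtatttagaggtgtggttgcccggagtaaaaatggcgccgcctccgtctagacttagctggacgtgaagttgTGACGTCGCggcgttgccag
Psmc6: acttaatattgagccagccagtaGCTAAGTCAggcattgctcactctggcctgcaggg
Psmd12: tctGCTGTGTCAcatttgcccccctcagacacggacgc
Psmd9: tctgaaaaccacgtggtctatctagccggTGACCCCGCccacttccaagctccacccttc
In Psmb5 the match began 47 bases before the start, on the gene's own strand. The other matches, in Psmb6 on the gene's own strand and in Psme4 on the opposite one, began 9 and 7 bases before the start that the promoter table uses, and that of Psmb6 lies within the RefSeq span of the gene, which begins further upstream. All 6 genes with a match rose in both strains. Their median difference was 0.59 in PRB and 0.67 in PRA, and that of the 33 tested genes with a promoter and no match was 0.60 in PRB and 0.67 in PRA. Among the other motifs searched on both strands, CCAAT occurred in 35% of the 40 genes and 41.1% of all genes, TTCNNNGAA in 7.5% and 9.55%, and the core of the interferon-stimulated response element (GAAA, any 2 bases, GAAA) in 12.5% and 3.99%. The 5 genes with that core were Psmb3, Psmd4, Psmd9, Psmg4 and Psme1, and of the inducible catalytic genes Psmb8 held TTCNNNGAA and Psmb9 a CCAAT. No matches of different motifs overlapped. A match is a description of these letters, and no binding was measured.

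Other genes around the proteasome moved with it. Of 16 partners and assembly factors outside the symbol rule, 13 rose in PRB and 14 in PRA, and none fell. For this and the following lists, the shares over all features were 36.2% higher and 32.9% lower in PRB. In PRA they were 36.6% and 33.2%. Adrm1, a ubiquitin receptor of the regulatory particle, rose by 1.18 in PRB and by 1.11 in PRA, and Usp14, a ubiquitin-removing enzyme bound to it, by 0.94 in PRB and 0.71 in PRA. Txnl1, a thioredoxin-like partner, rose by 0.87 and 0.71, and Ubqln1, a shuttle factor that brings ubiquitinated proteins to the proteasome, by 0.85 in each strain. Ddi2, the protease that activates NFE2L1, rose by 0.77 and 0.89, and Pomp, the maturation factor of the core particle, by 0.50 and 0.56. Akirin2, which carries proteasomes into the nucleus, and Zfand5 were not called in either strain.

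Of 13 genes of ubiquitin and its activation, 8 rose in each strain and none fell. The conjugating enzymes Ube2k and Ube2n each rose by 0.82 in PRB, and by 0.81 and 0.85 in PRA. Ube2l3, another of them, rose by 0.65 in PRB and by 0.57 in PRA, and Uba1, the main activating enzyme, by 0.63 and 0.69. The ubiquitin precursor gene Ubb rose by 0.32 and 0.23. Of 14 genes of p97 and endoplasmic reticulum-associated degradation, which sends misfolded secretory proteins to the proteasome, 12 rose and 2 fell in PRB and 11 rose and 2 fell in PRA. Vcp, which encodes p97, averaged 116 ± 7.39 FPKM in PRB with P4 and 64.8 ± 3.82 in PRB with oil, and 120 ± 5.70 in PRA with P4 and 66.0 ± 4.21 in PRA with oil (SD, n = 4). Syvn1, the ubiquitin ligase HRD1, rose by 1.24 in PRB and 1.1 in PRA, Edem1, a mannosidase-like factor, by 1.5 and 1.31, and Nploc4, a cofactor of p97, by 0.84 and 0.81. Derl3 and Ngly1 were the genes that fell.

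Of 12 genes of NRF1, NRF2 and their antioxidant targets 8 rose and 4 fell in each strain. Nfe2l1 averaged 121 ± 3.96 FPKM in PRB with P4 and 77.1 ± 2.95 in PRB with oil, and 105 ± 2.94 in PRA with P4 and 78.3 ± 5.30 in PRA with oil (SD, n = 4), a rise of 0.65 in PRB and of 0.43 in PRA. The target with the largest change was Hmox1, heme oxygenase, which rose by 1.85 in PRB and by 1.13 in PRA. Slc7a11, a cystine transporter, fell by 1.12 in PRB and by 0.59 in PRA, while G6pdx rose by 0.98 and 0.78 and Gclc, of glutathione synthesis, by 0.37 and 0.99. The PRB values lean on PRB P4 replicate 3, with 35.3 FPKM of Hmox1 (15.9 to 19.6 in the rest of its group) and 80.8 of G6pdx (37.55 to 42.36). That library also had the lowest Gclc (23.9 FPKM) and Slc7a11 (5.59) of its group. Nfe2l2, which encodes NRF2, fell by 0.17 in PRB and by 0.16 in PRA, and its target Nqo1 fell by 0.63 in each strain, while the target Srxn1 rose by 0.97 and 0.99. The cytosolic chaperonin, a folding complex set beside the proteasome for comparison, had all 8 genes higher in both strains, with medians of 0.97 in PRB and 1.09 in PRA. Cct6a rose by 1.28 and 1.43, and Cct3 by 1.12 and 1.30.

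Tissue markers moved with treatment as well. The 7 epithelial genes summed to 1410 to 1628 FPKM in PRB with P4, 967 to 1076 in PRB with oil, 1104 to 1389 in PRA with P4 and 910 to 1047 in PRA with oil. Of these Cldn3 and Krt8 rose in both strains, and Krt18 and Epcam fell in PRA. Much of the change in the sum was that of Cldn3, at 556 to 643 FPKM in PRB with P4 and 144 to 202 in PRB with oil. In PRA Cldn3 was at 352 to 405 FPKM with P4 and 140 to 186 with oil. The 7 stromal genes summed to 672 to 744, 982 to 1096, 619 to 777 and 909 to 1018 FPKM in the same groups, and Dcn and Lum fell while Col1a1 and Hand2 rose in both strains. Here much of the change was that of Dcn, at 326 to 351, 573 to 652, 249 to 321 and 498 to 624 FPKM in the same groups. Col1a2 fell in PRB, and Col3a1 rose in PRA. The 5 smooth muscle genes overlapped between treatments in each strain (958 to 1616, 1034 to 1347, 1134 to 1563 and 1123 to 1412 FPKM; Des rose in both strains and Myh11 fell in PRB), as did the 4 endothelial genes (116 to 135, 119 to 134, 91.4 to 121 and 104 to 130 FPKM; Pecam1 fell in PRA). None of the genes in these 4 lists was at 0 in all libraries of a group. The part of cell composition in the proteasome levels was not tested.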

How the data were processed

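RNA-seq of 16 whole-uterus libraries was used, as 1 table of FPKM values that the authors deposited. The unit is taken from the table's name. TopHat2 2.0.4, Cufflinks 2.0.2, Cuffdiff and mm10 are named, with no role or order, per the submitters' processing notes. The sources used here do not give the annotation or the use of strand, and FPKM depends on the transcript lengths used.

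Features averaging 1 FPKM or more entered the test as log2(FPKM + 1), which understates changes of low genes, with limma 3.58.1 in R 4.3.3. All 16 libraries entered 1 fit with a mean for each group and an intensity trend, and p-values were adjusted by Benjamini-Hochberg over 15408 features. The 5 contrasts were P4 against oil in PRB and in PRA, PRB against PRA with P4 and with oil, and the difference of the responses. Catalytic ratios were compared by exact permutation tests. The procedure was tested on simulated data with independent noise for each gene and few changed features. That test does not cover shifts shared by the genes of a library, or contrasts in which most features are called.

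All members may be named. Values per library are given for the catalytic subunits and for up to 4 members with the largest called differences in each direction. Of each pathway list, the 3 called genes with the largest differences are named, except for the cytosolic chaperonin, of which only Cct6a and Cct3 are. Members and lists were chosen with earlier results of these data known, and Psmb3 and Psmd3 per library, further list genes and the Psme1 to Psme3 ratio were picked after their values were seen. Red blood cell, adipose, oviduct and ovary, and skeletal muscle markers are reported under other observations.

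Library depth is not stated. The low values that could show it rest on 8 to 16 genes per library, so no depth or counting interval is given. Replicate numbers were checked for pairing by the correlation of deviations from group means and were not used. Positions, neighbours and promoters are from RefSeq (GRCm38.p6) and GENCODE M21. Alternatives covered the pseudocount, filters, scaling, intensity trend, replicate block, libraries in the fit and each library left out. Some genes of the lists are counted but not reported by name here.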

Additional observations from a re-analysis of the deposited data

Results flagged for a closer look

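In 184 sets of 4 libraries, 1 for each tested proteasome gene and group, 11 had a library whose gap to the nearest other was larger, relative to the range of the set, than Dixon's 95% critical value for 4 samples. Chance gives about 1 in 20, or 9.2 here, so the number is near that of chance.

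In the core particle these were PRB P4 replicate 4 for Psmb8, at 23.9 FPKM with the nearest other at 28.4, PRA oil replicate 4 for Psmb9, at 31.9 with the nearest other at 23.9, and PRB P4 replicate 1 for Psmb1, at 91.4 with the nearest other at 87.3. Among regulatory subunits they were PRB oil replicate 2 for Psmc3 (38.7 FPKM, lowest), PRB P4 replicate 2 for Psmd1 (38.9, lowest), PRB P4 replicate 3 for Psmd11 (32.9, lowest) and PRA oil replicate 1 for Psmd12 (24.5, lowest). Among chaperones they were PRA P4 replicate 2 for Psmd9 (16.6 FPKM, lowest), PRB P4 replicate 3 for Psmd10 (17.1, highest), PRA P4 replicate 1 for Psmg2 (42.3, lowest) and PRB oil replicate 4 for Psmg3 (26.5, highest).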

How the results depend on the processing

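After quantile normalization 3 proteasome genes were lower in PRA (1 in the reported fit), and the median difference was 0.39 in PRB and 0.46 in PRA. After scaling each library to the same total these were 4, 0.41 and 0.49. Psmf1 then fell by 0.13 in both strains (adjusted p = 0.0122 in PRB and 0.0123 in PRA), and Psmg2 in PRB turned to -0.064 (quantile) and -0.062 (same total), not called. Fitting only the libraries compared gave 1616 features called between strains with P4 (2471 reported) and 7 with oil (18 reported), and no filter gave 33 with oil. Leaving out each library in turn gave 1412 to 2612 features and 2 to 5 lower proteasome genes between strains with P4, 8 to 29 features with oil, 155 to 494 for the difference of responses (352 reported), and, for P4 against oil, 38 to 40 proteasome genes higher in PRB and 39 in PRA. The 5 lower genes between strains, without PRB oil replicate 4, included Psmb9 (adjusted p = 0.0303) and Psme2 (adjusted p = 0.0447).

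Of 1196 combinations of gene and alternative in each contrast, 1178 in PRB, 1189 in PRA, 1186 between strains with P4 and 1196 with oil kept their call. So did all 1150 for the difference of responses. Where called, these genes also kept their direction. A change of direction in a gene called in neither fit was not counted. The cause of the changes was not tested.

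Replicate numbers did not pair the libraries, with 3 of 16 correlations over 0.1 and the best match carrying the same number in 4 of 16. With the replicate block 39 genes rose and 4 fell in PRB, 39 rose and 1 fell in PRA, 3 were lower between strains with P4, and the difference of responses gave 467 features.

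Depth behind FPKM is not known, 4 libraries per group limit the precision, and RNA levels say nothing of assembled proteasome or its activity.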

Other observations

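Markers of tissues that may be carried along in a dissection were also read. Acta1, a skeletal muscle actin, averaged 57.6 ± 11.7 FPKM in PRB with P4 and 30.3 ± 12.1 in PRB with oil, and 116 ± 29.2 in PRA with P4 and 34.2 ± 30.2 in PRA with oil (SD, n = 4), and was called in PRA (2.27, limma, adjusted p = 0.00328). The muscle genes Ckm and Myh4 stayed under 1 FPKM on average in every group. The 3 red blood cell genes, at 191 to 536 FPKM in PRB with P4, 72.1 to 298 in PRB with oil, 98.3 to 469 in PRA with P4 and 77.3 to 318 in PRA with oil, and the 3 adipose genes, at 27.0 to 91.3, 37.8 to 164, 30.2 to 110 and 30.3 to 289 FPKM in the same groups, varied widely between libraries, and none was called for P4 against oil. Of the oviduct and ovary genes Inha, an inhibin subunit, fell by 1.30 in PRB and by 1.61 in PRA, Ovgp1 was not called, and Cyp19a1 was at or near 0.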
